A study of Mus musculus with 28 samples.

Results

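Nt5e encodes CD73, a surface enzyme that the study used as a sorting marker for growth plate skeletal stem and progenitor cells. Here the Nt5e-positive cells that lie outside cartilage were examined in 4 scRNA-seq libraries from mouse bone marrow and bone. A member was a cell with at least 200 detected genes, at least 1 Nt5e UMI (unique molecular identifier, 1 counted mRNA molecule) and less than 1% of its UMIs from 7 cartilage genes (Col2a1, Col9a1, Col9a2, Col11a2, Cnmd, Matn3 and Hapln1). In all, 164 of 6205 cells met the rule, out of 245 cells with an Nt5e UMI and 5892 cells under the cartilage limit. Because members were selected on Nt5e UMIs and on the cartilage genes, values of these 8 genes are given only as description. Each member was set beside 5 Nt5e-negative cells of its own library nearest to it in total UMIs (820 cells in all), under the same cartilage limit.

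CD73 is anchored at the outer face of the plasma membrane and cleaves extracellular AMP to adenosine, after ENTPD1 (CD39) and ENPP1 have produced AMP from ATP and ADP. Adenosine then acts on the receptors encoded by Adora1, Adora2a, Adora2b and Adora3, is taken up through the transporter Slc29a1, and is removed by Ada and Adk. In the skeleton CD73 is best known as a marker of mesenchymal stromal cells in culture and of resting zone chondrocytes, so its distribution among marrow stromal and periosteal cells bears on what a CD73 gate collects.

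In the RefSeq annotation of GRCm38.p6, Nt5e lies on the plus strand at chr9:88327197-88372092. Its promoter sequence is shown because open chromatin at this start site was measured in sorted cells. The 300 bases at chr9:88327359-88327658 surround the start site at 88327609 and hold 50 bases from it onward, the start base included. This start lies downstream of the first base of the annotated gene, so the window is within the gene's outer bounds. Capitals mark the GC box, searched as GGGCGG and as its reverse complement CCGCCC.
Nt5e promoter: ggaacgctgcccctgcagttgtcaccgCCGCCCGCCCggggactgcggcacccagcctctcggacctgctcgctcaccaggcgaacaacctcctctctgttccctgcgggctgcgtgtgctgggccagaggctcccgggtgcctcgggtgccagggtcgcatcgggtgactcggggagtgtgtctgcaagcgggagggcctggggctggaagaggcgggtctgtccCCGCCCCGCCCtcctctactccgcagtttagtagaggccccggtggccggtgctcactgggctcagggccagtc
This window held 4 matches in 2 overlapping pairs, and 35.7% of 32851 promoters of the same length held at least 1. Its GC content was 71.0% (median of all promoters 52.7%), and it held 23 CpG sites (median 7). Neither the cAMP response element TGACGTCA (1.79% of promoters, its own reverse complement) nor TATAAA or TTTATA (13.6%) was in this window.

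The study concerns Zmpste24 (Z24), the protease that processes prelamin A, with Prx1Cre, active in limb mesenchyme, and OsxCre, active in osteoblast-lineage cells. It sorted td-Tomato-positive cells lacking CD45, Ter119 and CD31. The single-cell libraries, 1 per group, are labelled PrxCre; Z24fl/fl at 8 weeks (Prx1Cre library below), OsxCre; Z24fl/fl at 8 weeks (OsxCre library), PrxCre; Z24fl/+ at 16 weeks (control library) and PrxCre; Z24fl/fl at 16 weeks (CKO library), all from bone marrow and bone. The control library therefore carries 1 floxed allele and the same Cre. In any td-Tomato cell, Cre has been active at some time in the cell itself or in an ancestor of it. The methods describe the 8-week mice as Cre reporter mice without the deletion, which goes against their labels. In marrow stromal (BMSC-like) cells, the Zmpste24 level was 20.4 counts per 1000000 UMIs (CPM) in the Prx1Cre library, 40.1 CPM in the OsxCre library, 19.7 CPM in the control library and 3.05 CPM in the CKO library. The methods also give the cell numbers of the 16-week genotypes the other way round from the deposited labels, which are kept here. A low Zmpste24 level was thus seen in the library labelled CKO and not in the libraries labelled Z24fl/fl at 8 weeks, although a 3′ library reads mainly the end of the mRNA and need not report a lost exon. A Zmpste24 UMI was present in 1 of 24, 0 of 9, 1 of 66 and 0 of 65 members of the Prx1Cre, OsxCre, control and CKO libraries, too few to compare.

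The Prx1Cre library held 993 cells, the OsxCre library 782, the control library 2068 and the CKO library 2362, with 1559936, 1041854, 3687717 and 3513305 UMIs. With 1 library per group, no difference between genotypes or ages was tested, and the 4 libraries served as 4 pairs of positive and negative cells. No doublet caller was run and no doublets were removed. Pairs of libraries shared between 0 and 10 cell barcodes, and no member's barcode occurred in another library.

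Nt5e mRNA was sparse outside cartilage. A UMI was found in 24 of 835 such cells of the Prx1Cre library (2.87%, exact 95% interval 1.85 to 4.25), in 9 of 707 of the OsxCre library (1.27%, 0.584 to 2.40), in 66 of 2007 of the control library (3.29%, 2.55 to 4.17) and in 65 of 2343 of the CKO library (2.77%, 2.15 to 3.52). All intervals given for shares and levels cover counting error only. The OsxCre share was the lowest, and its interval was clear of that of the control library only. After every cell was thinned to 1000 UMIs, with shallower cells left out, the shares were 3.101% (12 of 387), 1.43% (4 of 280), 1.57% (22 of 1399) and 1.87% (27 of 1445) in the same order. Thinning thus brought the 16-week shares closer to the OsxCre share, with overlapping intervals (1.61 to 5.35, 0.391 to 3.62, 0.988 to 2.37 and 1.24 to 2.71), and it changed the order of the control and Prx1Cre libraries. Because it both cut the UMIs per cell and left out shallower cells, the part of each step was not tested.

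The members themselves differed from other cells in depth before matching. Their median UMI number was 1428 against 950 for Nt5e-negative cells in the Prx1Cre library, 1022 against 887 in the OsxCre library, 1985 against 1386 in the control library and 1673 against 1242 in the CKO library. Matching removed this gap (for example 1427.5 against 1424.5 UMIs and 775.5 against 772 genes in the Prx1Cre library). Of the 164 members, 158 had a single Nt5e UMI, and 132 had no UMI of any of the 7 cartilage genes. The 6 members with 2 or more were 3 cells of the Prx1Cre library, 2 of the control library and 1 of the CKO library. Next to the cartilage limit, the highest members held 0.852% (a PMSC-like cell) and 0.98% (a chondrocyte-like cell) of their UMIs in these genes, and the nearest excluded Nt5e-positive cells held 1.095% and 1.202%, both chondrocyte-like.

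Cells were clustered without Nt5e, Ly6a, Acan and Zmpste24, and clusters were named from marker lists. The members were 133 BMSC-like cells (81.1%), 20 periosteal mesenchymal (PMSC-like) cells (12.2%), 8 osteoblast-like (OB-like) cells (4.88%), and 1 chondrocyte-like, 1 pericyte-like and 1 erythroid-like cell. BMSC-like cells carry Cxcl12, Lepr, Kitl and Adipoq, the niche factors and marks of perivascular marrow stroma. PMSC-like clusters at both ages were led by Prg4, Igfbp6, Clec3b and Ly6a, genes of periosteal, synovial and other fibroblasts.

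The Nt5e level was next compared between classes. In BMSC-like cells Nt5e stood at 20.4, 12.02, 22.4 and 21.0 CPM in the Prx1Cre, OsxCre, control and CKO libraries. In PMSC-like cells it stood at 58.6, 22.9, 15.6 and 46.7 CPM, resting on 13, 2, 3 and 4 UMIs. In the Prx1Cre library, 9 of the 13 UMIs lay in 14 PMSC-like cells with 10 or more UMIs of Cytl1 and of Prg4 (307.7 CPM). There, 69 other cells with a Ly6a UMI held 0 Nt5e UMIs, and the 79 remaining cells held 4 (39.2 CPM). This split was chosen after the values were seen. The PMSC-like level was above the BMSC-like level in 3 libraries and below it in the control library. The Poisson intervals of both classes overlapped in every library, least in the Prx1Cre library (31.2 to 100.1 against 10.2 to 36.5 CPM). OB-like cells had 8.94 and 14.7 CPM in the Prx1Cre and control libraries. None of the 63 OB-like cells of the OsxCre library and none of the 171 of the CKO library had a Nt5e UMI, which by a limit of 3 counts allows shares of up to 4.76% and 1.75% and levels of up to 18.8 and 12.1 CPM (exact upper bounds 5.69% and 2.13%, 23.2 and 14.9 CPM). For comparison, all chondrocyte-like cells had 119.6, 92.2, 70.0 and 49.0 CPM. Chondrocyte-like cells were thus above BMSC-like cells in every library, but the CKO interval of chondrocyte-like cells reached down to 13.4 CPM, within the BMSC-like range.

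**Figure D1:**
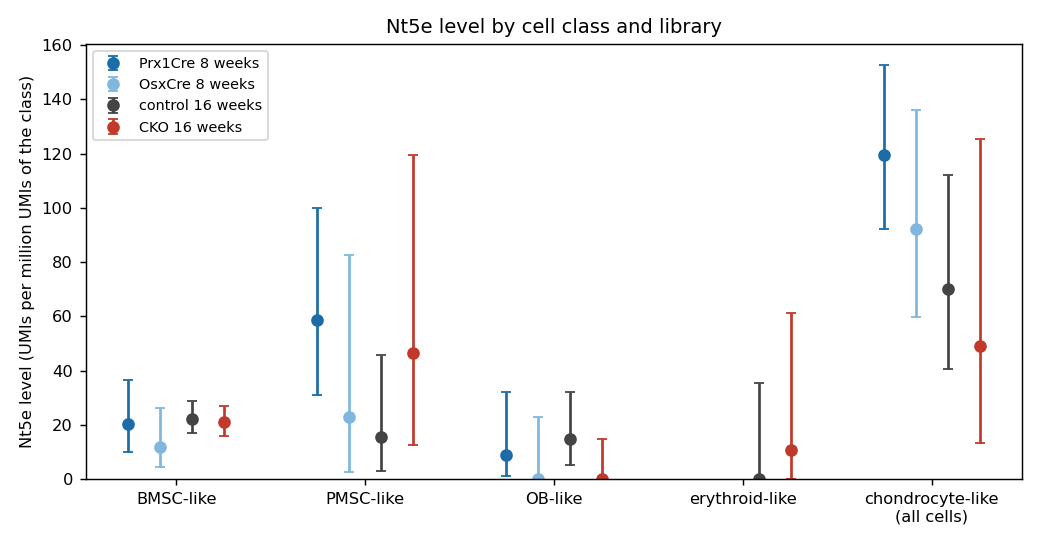
Nt5e level (counts per 1000000 UMIs of the class, CPM) by cell class, with 1 point per library and exact Poisson 95% intervals for counting error; classes are limited to cells outside cartilage except the chondrocyte-like cells. BMSC-like cells lie between 12.02 and 22.4 CPM, and the Prx1Cre PMSC-like point at 58.6 CPM lies between them and the chondrocyte-like point at 119.6 CPM. Of the 13 Nt5e UMIs behind that PMSC-like point, 9 lie in 14 cells with 10 or more UMIs of Cytl1 and of Prg4.

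Free RNA in a droplet can give a UMI to a cell that does not express the gene, so the BMSC-like share was read beside other classes. None of them is a clean reference, since osteoblasts too are known to express CD73. It was 1.76% in the Prx1Cre library and 1.09% in the OsxCre library, at median depths of 899 and 850 UMIs. It was 3.43% (57 of 1662, interval 2.61 to 4.42) in the control library and 2.93% (60 of 2050, 2.24 to 3.75) in the CKO library, at 1406 and 1254 UMIs. Erythroid-like cells had 0 of 49 in the control library (exact upper bound 7.25%, median 1309 UMIs) and 1 of 42 in the CKO library (2.38%, 1670 UMIs), so at this depth they do not separate the BMSC-like share from background. That 1 positive cell also held marrow stromal transcripts, with 63 Cxcl12, 1 Lepr and 9 Adipoq UMIs among its 3986 UMIs. OB-like cells had 2 of 71 in the Prx1Cre library (2.82%, 2813 UMIs), 0 of 63 in the OsxCre library (2394 UMIs), 6 of 188 in the control library (3.19%, 1268 UMIs) and 0 of 171 in the CKO library (1108 UMIs). These shares are at unequal depth: the exact intervals of both classes overlapped in the Prx1Cre, OsxCre and control libraries and were apart in the CKO library (upper bound 2.13% for OB-like, lower bound 2.24% for BMSC-like cells). Thinned to 1000 UMIs, 0 of 63, 0 of 47, 0 of 113 and 0 of 91 OB-like cells had Nt5e, against 6 of 212, 3 of 188, 21 of 1175 and 25 of 1263 BMSC-like cells in the Prx1Cre, OsxCre, control and CKO libraries. The ratio of Nt5e to Acan, the main cartilage proteoglycan, differed between classes. Chondrocyte-like cells held 41.4, 31.7, 33.6 and 19.4 Nt5e UMIs per 1000 Acan UMIs, and BMSC-like cells 1100, 400, 6556 and 20670. PMSC-like cells held 419.4, 500, 3000 and 307.7, resting on 31, 4, 1 and 13 Acan UMIs. The BMSC-like ratios rest on 10, 15, 9 and 3 Acan UMIs. Col2a1, a gene of the rule, stood at 300.5, 240.4, 20.9 and 13.6 CPM in BMSC-like cells, in the same order of libraries. It was thus higher at 8 than at 16 weeks. The part of free RNA in the Nt5e UMIs was not tested. Within BMSC-like cells the share followed depth, at 2.82% in the deeper and 0.702% in the shallower cells of the Prx1Cre library, 2.19% and 0% in the OsxCre library, 4.70% and 2.16% in the control library and 3.81% and 2.05% in the CKO library. The level was higher in the deeper cells at 8 weeks (23.5 against 15.1 CPM and 18.7 CPM against 0 UMIs) and lower in them at 16 weeks (21.5 against 24.5 CPM and 18.1 against 28.9 CPM), with overlapping intervals in each library.

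Against depth-matched negatives, PMSC-like cells were the class with a higher share of members in every library. They made up 11 of 24 members against 33 of 120 negatives in the Prx1Cre library (45.8% against 27.5%), 2 of 9 against 6 of 45 in the OsxCre library (22.2% against 13.3%), 3 of 66 against 11 of 330 in the control library (4.55% against 3.33%) and 4 of 65 against 9 of 325 in the CKO library (6.15% against 2.77%). The mean difference was 7.96 ± 7.64 percentage points (SD, n = 4; exact two-sided sign-flip permutation test, p = 0.13, the smallest that 4 libraries allow). Intervals of both sides overlapped within each library. The 70 PMSC-like cells of the OsxCre library held 0 Ly6a UMIs, and at resolution 0.5 the PMSC-like cluster held only 9 OsxCre cells, so PMSC-like and OB-like values of that library depend on the clustering. Without the Prx1Cre library the mean was 4.495 points, and with 2 negatives per positive it was 4.98 points and higher in 3 of 4 libraries. The direction was not stable to the clustering: at a finer resolution of 0.5, only 13 of the 20 members stayed PMSC-like, neither of the 2 OsxCre members did (both became OB-like), the share was higher in 2 of 4 libraries and the mean difference was 4.10 points (exact p = 0.75).

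OB-like cells made up a lower share of members in all 4 libraries, at 8.33% against 20.8%, 0% against 11.1%, 9.09% against 11.8% and 0% against 5.85%. The mean difference was -8.05 ± 4.56 points (SD, n = 4; same exact test, p = 0.13), and at resolution 0.5 it was -5.41 points, lower in 3 of 4. The BMSC-like share was 41.7% against 49.2% and 66.7% against 73.3% at 8 weeks, and 86.4% against 80.0% and 92.3% against 87.7% at 16 weeks (mean -0.797 ± 7.30 points, exact p = 0.75).

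**Figure D2:**
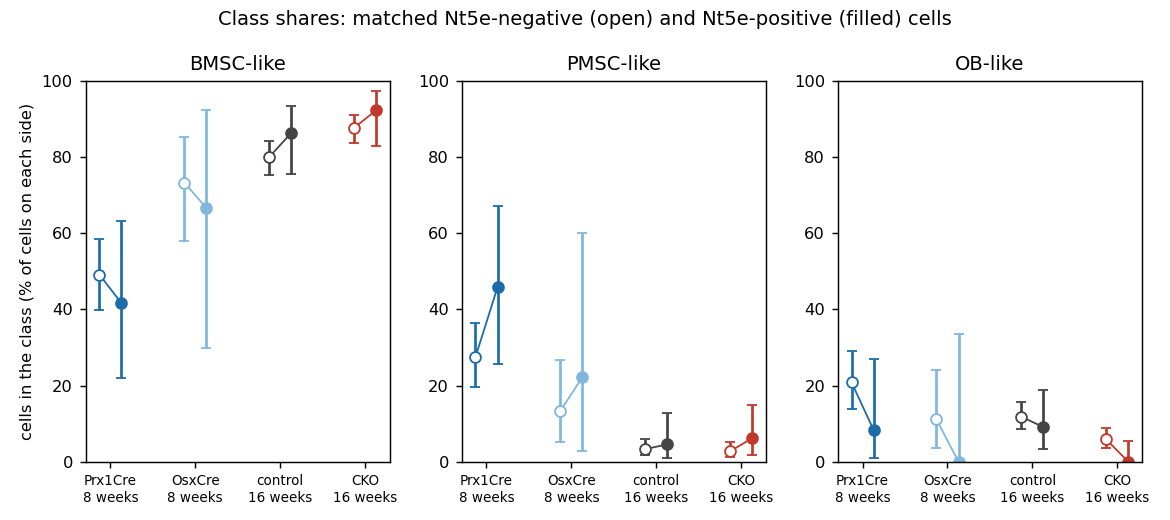
Share of cells (%) in the BMSC-like, PMSC-like and OB-like classes among depth-matched Nt5e-negative cells (open) and Nt5e-positive cells (filled), per library, with exact binomial 95% intervals. PMSC-like shares are higher and OB-like shares lower among positive cells in each library, with overlapping intervals.

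Summed UMI counts of members and matched negatives were then compared over 2000 genes with the library as a block. No gene passed an adjusted p of 0.05 (edgeR quasi-likelihood test with Benjamini-Hochberg adjustment; 0.0% called, lowest adjusted p 0.100). At an unadjusted p under 0.05 there were 87 genes (4.35%), 44 higher (2.2%) and 43 lower (2.15%) in members, and DESeq2 called 0 genes with 58 unadjusted. The median gene's 95% interval spanned 0.62 on the log2 scale to either side, which is the precision for a typical gene.

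**Figure D3:**
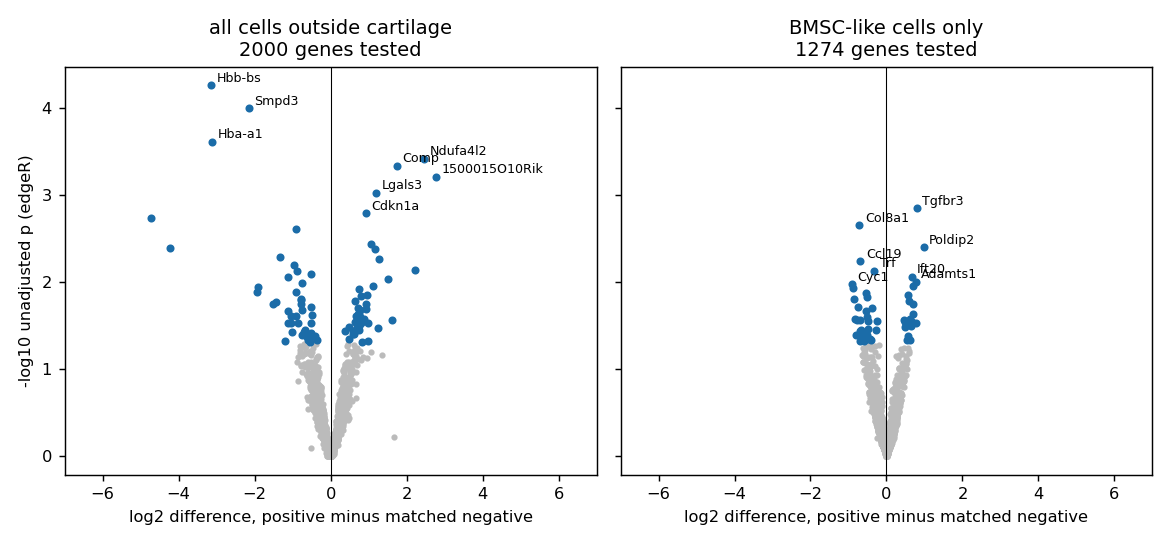
Log2 difference (Nt5e-positive minus matched negative; x axis) and -log10 unadjusted p (y axis) for each gene in all cells outside cartilage (left) and in BMSC-like cells (right); blue points have an unadjusted p under 0.05. The spread is wide on the left, led by Hbb-bs, Smpd3, Comp and Ndufa4l2, and narrow on the right, and no point passes the adjusted threshold.

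Ndufa4l2, a hypoxia-induced mitochondrial protein, had the lowest p among genes higher in all 4 libraries. Its level scaled to TMM library sizes was 2636 against 155.3 CPM in the Prx1Cre library, 288.6 against 264.5 in the OsxCre library, 33.4 against 30.3 in the control library and 206.1 against 47.4 in the CKO library. The log2 difference was 2.46 ± 0.51 (SE; edgeR adjusted p = 0.182), carried by the Prx1Cre and CKO libraries. PMSC-like members held 89 Ndufa4l2 UMIs in the Prx1Cre library (7 of 11 cells) and 17 in the CKO library (1 of 4 cells). In the OsxCre library, 0 of 6 BMSC-like and 0 of 2 PMSC-like members had a UMI of it. The level of that library thus came from its 1 pericyte-like member. Within BMSC-like cells it was found in 4 of 133 members and 25 of 665 negatives, at 17.4 and 23.6 CPM. The part of the classes in this difference was not tested. Comp, a matrix protein of cartilage, tendon and synovium, differed by 1.73 ± 0.37 (edgeR adjusted p = 0.182) and was higher in 3 of 4 libraries, at 3811 against 828.1, 0 against 198.4, 141.8 against 84.1 and 358 against 60.4 CPM. Cdkn1a, the p21 cell cycle inhibitor, was higher in all 4 libraries, with a log2 difference of 0.92 (edgeR adjusted p = 0.401). The serine protease Htra1 (1.17), the prion protein Prnp (1.26), the mineralisation inhibitor Mgp (0.94) and the TGF-beta target Pmepa1 (0.80) were higher in 4 of 4 libraries. Plekhf1, Sdhaf4, Ppp1r11 and Arglu1 were too, and none of these genes passed the adjusted threshold. Only genes of lowest p are named, so this is not the full set of genes higher in 4 of 4 libraries. For Mgp the Prx1Cre library held most of the difference, at 14700 against 2352 CPM.

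Hbb-bs, a beta-globin chain of red cells, had the lowest p of all genes and was lower in all 4 libraries. It stood at 114.6 against 276.1, 0 against 66.1, 366.9 against 7394 and 76.0 against 219.9 CPM (log2 difference -3.14 ± 0.52, edgeR adjusted p = 0.100). Erythroid-like cells moved with it: they were 1 of the 164 members and 20 of the 820 matched negatives, and the 7 erythroid markers summed to 664.1 against 15740 CPM in the control library, led by Hbb-bs. Their part in the result was not tested. Within BMSC-like cells, with negatives of the same class, Hbb-bs was found in 24 of 133 members and 130 of 665 negatives, at 208.8 and 222.6 CPM.

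Of the other genes lower in all 4 libraries, only those of lowest p with a UMI in enough members are named. The list is therefore not complete. It held the matrix collagen Col8a1 (-0.90), the semaphorin and VEGF coreceptor Nrp2 (-1.33) and the AP-1 factor Jun (-0.52). It also held Fcer1g of myeloid cells (-0.91), the fibroblast protease Fap (-0.79), and Cyc1, Cd63, Rcn1 and Hpgd. Osteocalcin (Bglap) differed by -4.74 ± 1.20 (edgeR adjusted p = 0.404) and was lower in 3 libraries, at 1118 against 76292, 481 against 42103 and 32.5 against 1658 CPM, but higher in the control library at 24144 against 9604 CPM. In that library 2 OB-like members had 11985 and 10648 UMIs, more than any other member. Smpd3, a neutral sphingomyelinase of bone, was lower in all 4 libraries (-2.16, edgeR adjusted p = 0.100) but had a UMI in only 8 members and was added after its values were seen. Without the 2 OB-like members and with matching redone, 3 genes passed higher (1500015O10Rik, Comp and Ndufa4l2). In this setting 6 genes passed lower (Bglap, Bglap2, Car3, Col1a1, Hba-a1 and Hbb-bs). The control negatives changed too, from 330 to 320 cells, and the deepest of them from 10808 to 4141 UMIs. The part of the members and of the negatives was not tested, and the count of 0 also changed in other settings given below.

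Gene lists are described by counts beside the same count over all genes, where 4.35% had an unadjusted p under 0.05 and the median log2 difference was -0.0066. Of all 2000 genes, 971 had a higher and 1029 a lower estimate. Of 20 osteogenic genes, 15 were tested, 1 had an unadjusted p under 0.05 in the higher direction (Wif1, a Wnt inhibitor) and 6 in the lower, and the median was -0.71. Bglap and Bglap2 (osteocalcin genes) and Limch1 were among the 6. The summed level of the osteogenic list was lower in 3 libraries, at 41060 against 165500 CPM in the Prx1Cre library, and higher in the control library. OB-like cells moved with it (8 of 164 members and 88 of 820 negatives), as did the 7 OB markers, at 19610 against 127500 CPM in the Prx1Cre library, and their part in the result was not tested. In BMSC-like cells alone the mean log2 ratio of this list was 0.031 ± 0.31 (SD, n = 4). Of 21 hypoxia and glycolysis genes, 7 were tested, 6 were higher and 2 had an unadjusted p under 0.05, the glycolytic enzymes Aldoa (0.59) and Eno1 (0.58), with a median of 0.40. This list's summed level was higher in 4 of 4 libraries, at 4743 against 1931, 2494 against 1618, 1932 against 1804 and 1935 against 1692 CPM (mean log2 ratio 0.55 ± 0.55, SD, n = 4). In BMSC-like cells alone the mean was 0.10 ± 0.35, with the Prx1Cre library in the other direction at 1491 against 1810 CPM. Of 23 cartilage genes outside the rule, 8 were tested, 5 were higher and 2 had an unadjusted p under 0.05, Comp and Chad (log2 difference 2.22, higher in 2 libraries). The mean log2 ratio of this list over libraries was 0.19 ± 3.54, with the Prx1Cre and CKO libraries higher and the OsxCre and control libraries lower.

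The remaining lists held at most 2 genes at an unadjusted p under 0.05. Skeletal progenitor surface markers had 10 genes tested (median -0.11), marrow niche factors 13 (0.038), adipogenic genes 11 (0.16), mural genes 4 (-0.26) and interferon genes 8 (-0.077), and no gene of these 5 lists had an unadjusted p under 0.05. Of 12 periosteal and fibroblast matrix genes tested, 5 had a higher and 7 a lower estimate, and 2 of the latter had an unadjusted p under 0.05, Igfbp6 (-1.51) and the collagen Col3a1 (-0.92). Of 6 TGF-beta genes tested, 5 had a higher and 1 a lower estimate, and Pmepa1 alone had an unadjusted p under 0.05. Of 13 immediate early genes tested, 2 had a higher and 11 a lower estimate, and Jun alone had an unadjusted p under 0.05. After thinning, 5 of 9 such genes had a higher and 4 a lower estimate. Of 4 senescence genes tested, 2 had a higher and 2 a lower estimate, and Cdkn1a alone had an unadjusted p under 0.05. The single cell cycle gene tested, Hmgb2, was lower (-1.12).

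Most members were BMSC-like, and within this class no gene passed the test. Among 1274 genes, 0 passed the adjusted threshold (0.0% called; lowest edgeR adjusted p 0.996), 52 had an unadjusted p under 0.05 (4.08%), 19 of them higher (1.49%) and 33 lower (2.59%), and DESeq2 gave 0 with 3 unadjusted. The median gene's 95% interval reached 0.49 on the log2 scale to either side. Cxcl12, the chemokine that holds haematopoietic cells in the niche, had a UMI in 133 of 133 members and 664 of 665 class-matched negatives, at 27480 and 25830 CPM. The leptin receptor Lepr was found in 86 of 133 and 429 of 665 cells, at 804.7 and 775.9 CPM, and Adipoq in 117 of 133 and 571 of 665. Ly6a (Sca1) was found in 2 of 133 and 3 of 665, and Acan in 2 of 133 and 4 of 665. The medians of the niche, adipogenic and osteogenic lists in BMSC-like cells were 0.00051, 0.0017 and -0.00016 on the log2 scale. The summed level of the TGF-beta list was 1408 against 946.4, 807.1 against 805.3, 945.8 against 885.3 and 1172 against 856.3 CPM in the Prx1Cre, OsxCre, control and CKO libraries, practically equal in the OsxCre library (mean log2 ratio 0.28 ± 0.27, SD, n = 4), with 1 of 3 genes tested at an unadjusted p under 0.05, the basement membrane collagen Col4a1 (0.57). The cell cycle list, with no gene abundant enough to test, stood at 106.1 against 254.2 CPM in the control library and 185.1 against 218.2 CPM in the CKO library. In each 8-week library the members held only 1 UMI of this list, too few to give a direction. The niche factor list was at 42980 against 42390, 46680 against 38630, 50550 against 49240 and 49630 against 48350 CPM. Those of lowest p among genes with 1 direction in all 4 libraries were Plekhf1 (0.69) and Arglu1 (0.60) higher, and transferrin (Trf, -0.32) and Bmp4 (-0.51), a bone morphogenetic ligand, lower. Cdc37, BC005537, Ggt5, Ap3s1, Adamts2, Apod, Rps16 and Brk1 followed on the higher side, and Psmd8, Fermt2, Zbtb20, Tmem147, Cd63, Ywhae, Vim and Rtn4 on the lower side, all with an adjusted p of 0.996.

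PMSC-like members were a different case. The 20 cells (11, 2, 3 and 4 by library) were set beside 100 PMSC-like negatives of the same library and depth, and are described without a test because cells of 1 library are not replicates. Ly6a had a UMI in 2 of 20 members and 47 of 100 negatives. By library this was 1 of 11 against 28 of 55 (Prx1Cre), 0 of 2 against 0 of 10 (OsxCre), 1 of 3 against 10 of 15 (control) and 0 of 4 against 9 of 20 (CKO). Members were thus below negatives in every library where Ly6a was seen. Some other markers of periosteal and adventitial fibroblasts had the same direction over the pooled cells. Clec3b was found in 1 of 20 against 37 of 100, Cd34 in 1 against 33 and Igfbp6 in 4 against 61. Thy1 was found in 0 against 11 and Postn in 0 against 16. These counts are pooled only, and 11 of the 20 members were from the Prx1Cre library. Prg4, which led the PMSC-like clusters at both ages, had the opposite direction over the pooled cells and is given below. At resolution 0.5, 4 of the 20 members were BMSC-like, all from the control and CKO libraries, and 3 were OB-like. The BMSC-like marker Cxcl12 stood at 1140 against 1174 (Prx1Cre), 1519 against 1368 (OsxCre), 15600 against 3233 (control) and 7485 against 8692 CPM (CKO). The part of these cells in the lower Ly6a and fibroblast markers was not tested. The proteoglycan Dcn was found in 18 of 20 against 88 of 100 cells, and its level differed in direction between libraries, at 21590 against 17140, 911.3 against 2855, 982.7 against 20940 and 12080 against 8397 CPM.

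Genes of joint surface and cartilage-like matrix had the opposite direction over the pooled PMSC-like cells, carried mainly by the Prx1Cre library. Cytl1, a secreted protein of chondrocytes, was found in 8 of 20 against 7 of 100, at 29320 against 4106 CPM. The chaperone Clu was found in 18 against 40 (21600 against 1224 CPM), 1500015O10Rik (Ecrg4) in 12 against 23 (11750 against 928.5 CPM) and the cartilage matrix protein Cilp in 9 against 18 (8288 against 406.2 CPM). Prg4 (lubricin) was found in 11 against 35, Chad in 11 against 24, Comp in 11 against 36, Acan in 7 against 11 and Sox9, the chondrocyte transcription factor, in 6 against 9. By library, Cytl1 was found in 7 of 11 against 6 of 55 (Prx1Cre), 0 of 2 against 1 of 10 (OsxCre), 0 of 3 against 0 of 15 (control) and 1 of 4 against 0 of 20 (CKO). Cilp was found in 8 of 11 against 11 of 55, 0 of 2 against 1 of 10, 0 of 3 against 0 of 15 and 1 of 4 against 6 of 20, so that the share of cells was higher only in the Prx1Cre library, while the CPM was also higher in the CKO library (2887 against 441.9). Prg4 was found in 8 of 11 against 24 of 55, 0 of 2 against 1 of 10, 1 of 3 against 7 of 15 and 2 of 4 against 3 of 20, and the share of cells with Comp was higher in the Prx1Cre (8 of 11 against 22 of 55) and CKO (2 of 4 against 6 of 20) libraries only, while its CPM was also higher in the control library (1720 against 621.7). Clu was found in more members in each library, at 9 of 11 against 21 of 55, 2 of 2 against 4 of 10, 3 of 3 against 4 of 15 and 4 of 4 against 11 of 20. Clu was also common in BMSC-like cells, at 117 of 133 members and 545 of 665 negatives. The 4 PMSC-like members that were BMSC-like at resolution 0.5 came from the control and CKO libraries, and their part in the Clu counts was not tested. Gsn, an actin-severing protein, stood at 2034 against 9837 CPM. Clu, Cilp, 1500015O10Rik and Gsn were chosen after their values were seen. At resolution 0.5, with 13 members and 74 negatives, Ly6a stood at 1 against 47 and Cytl1 at 8 against 6.

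**Figure D4:**
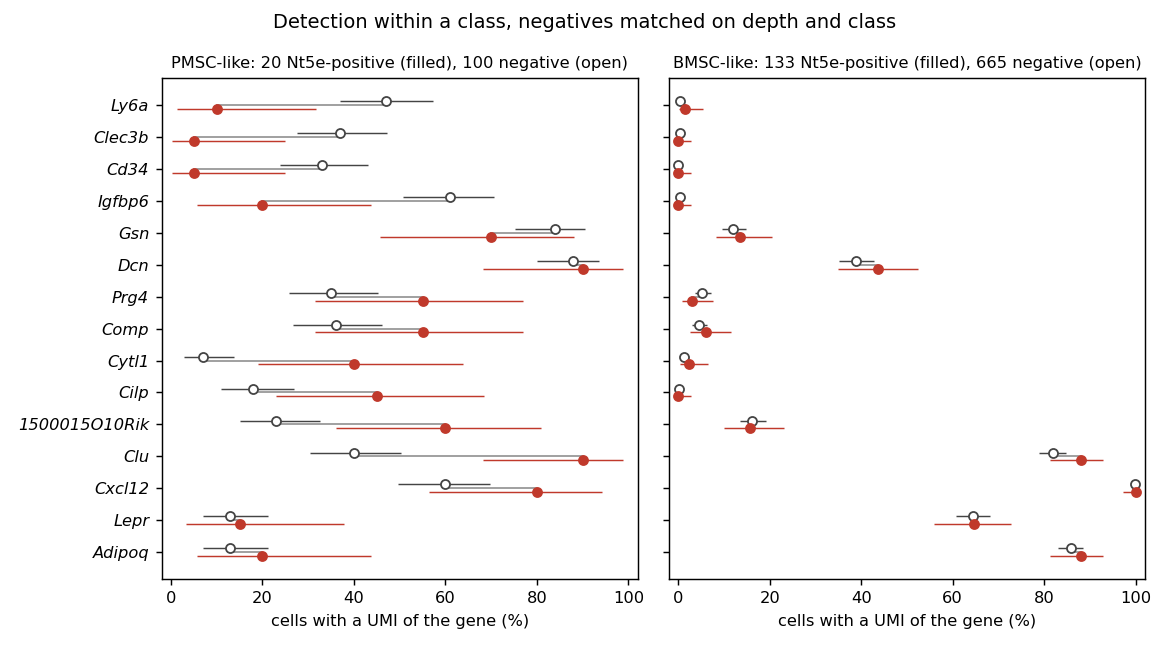
Percent of cells with a UMI of each gene among Nt5e-positive cells (filled) and class- and depth-matched negatives (open), PMSC-like on the left and BMSC-like on the right, pooled over the 4 libraries (11 of the 20 PMSC-like members are from the Prx1Cre library) with exact binomial 95% intervals. In PMSC-like cells Ly6a, Clec3b, Cd34 and Igfbp6 are found in fewer positive cells and Cytl1, Cilp, 1500015O10Rik and Clu in more, and in BMSC-like cells the points of both sides lie close together.

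The 8 members with Cytl1 held 35 to 317 Cytl1 UMIs and 11 to 120 Prg4 UMIs each. They came from the Prx1Cre library (7 cells) and the CKO library (1 cell). Cartilage genes moved with this group: 7 of the 8 had a UMI of the 7 rule genes, at 0.256% to 0.852% of their UMIs and so under the limit, against 2 of the other 12 PMSC-like members. Over all PMSC-like cells outside cartilage, 16 had 10 or more UMIs of both Cytl1 and Prg4, and 8 of them had Nt5e (285.5 CPM, 136.9 to 525.1). Of 134 other cells with a Ly6a UMI, 1 had Nt5e (0.746%, 0.0189 to 4.09; 3.99 CPM, 0.101 to 22.3), and of the 217 remaining cells, 11 had it (5.07%, 2.56 to 8.89; 36.5 CPM). The cells with Cytl1 and Prg4 were thus highest and the Ly6a cells lowest, at median depths of 1995, 1420 and 1139 UMIs. In the Prx1Cre library alone the counts were 7 of 14, 0 of 69 and 4 of 79. The control library had no cell of the first kind, and 1 of its 48 Ly6a cells had Nt5e. This split was chosen after the values were seen and carries no test. Over all classes Ly6a was found in 5 of 164 members and 30 of 820 matched negatives.

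Of the 25 genes of the adenosine and extracellular nucleotide pathway, 18 had a UMI in a member, and 7 were at 0 in members. Upstream of CD73, Entpd1 was found in 1 of 164 members and 3 of 820 matched negatives, and Enpp1 in 20 of 164 (12.2%, 7.61 to 18.2) against 39 of 820 (4.76%, 3.40 to 6.45). By library Enpp1 was found in 4 of 24 against 5 of 120 (Prx1Cre), 0 of 9 against 3 of 45 (OsxCre), 10 of 66 against 16 of 330 (control) and 6 of 65 against 15 of 325 (CKO), higher in 3 of 4. Enpp1 was under the count filter of the test and was picked here after its values were seen. Of the receptors, Adora1, Adora2b and Adora3 were at 0 in both sets, and Adora2a was found in 1 member and 15 negatives. Downstream, Slc29a1 was found in 94 of 164 against 443 of 820, Adk in 13 against 52 and Ada in 1 against 16. The 4 genes tested, Alpl (-0.50), Enpp2 (0.41), P2rx4 (0.18) and Slc29a1 (0.086), did not pass (edgeR adjusted p 0.9997 for each). For 0 of 164 members the exact upper bound is 2.22% of cells with a UMI of the gene, which does not limit the share of cells that express it.

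Some markers of sorted-out and other cell types had no UMI in any member. Ptprc (CD45), Csf1r and S100a9 were at 0, as were the endothelial genes Cdh5, Egfl7 and Cldn5, 7 of 8 lymphoid markers, and the mural genes Acta2, Myh11 and Mcam. The 8 myeloid markers, led by Fcer1g, summed to 106.8 against 1919, 86.0 against 103.3, 114 against 216.9 and 72.3 against 168.3 CPM, lower in members in all 4 libraries, and their part in the lower Fcer1g was not tested. The 7 endothelial markers, led by Pecam1, summed to 85.5 against 133.3, 86.0 against 86.1, 40.2 against 27.8 and 27.1 against 43.4 CPM. The 7 pericyte markers, led by Rgs5, summed to 64.1 against 283.9 CPM in the Prx1Cre library, 1978 against 636.9 in the OsxCre library, 161 against 314.3 in the control library and 90.4 against 448.9 in the CKO library. In the OsxCre library 1 of 9 members held all 23 Rgs5 UMIs. Pecam1 (CD31) was found in 8 of 164 members and 34 of 820 negatives. Endoglin (Eng), a stromal and endothelial surface marker, was found in 17 of 164 against 47 of 820.

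Nt5e was also read in bulk libraries of 20-week mice, all labelled PrxCre; Z24fl/fl, with control or cko given only in their titles. These were Prx1-Ai9+ Sca1+ cells of the periosteum (pSSPCs) and Prx1-Ai9+ CD73+ cells of the growth plate (gpSSPCs), 3 libraries per group. In bulk data fewer Nt5e-expressing cells and less RNA per cell cannot be told apart. pSSPCs had 49.5, 58.2 and 54.5 CPM in controls (54.1 ± 4.37, SD, n = 3) and 46.4, 59.1 and 48.4 CPM in CKO libraries (51.3 ± 6.85), and these groups overlapped. gpSSPCs had 245.5, 196.1 and 196.2 CPM in controls (212.6 ± 28.5) and 132.8, 337.0 and 291.5 CPM in CKO libraries (253.8 ± 107.2), also overlapping, with CKO replicate 1 the lowest. Since gpSSPCs were sorted on CD73, their higher Nt5e than pSSPCs is no finding. The Sca1-sorted cells were not at 0, and they held 66 to 271 Nt5e counts per library; these CPM come from another assay and are not set beside the single-cell CPM.

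The ATAC-seq peak over the Nt5e start site, called by MACS2 in each library, was present in 12 of 12. Its fold enrichment was 13.3, 11.2 and 13.6 in control pSSPCs, 10.3, 13.6 and 10.2 in CKO pSSPCs, 8.04, 8.21 and 7.34 in control gpSSPCs and 8.80, 8.51 and 8.14 in CKO gpSSPCs. The pSSPC values lay above all gpSSPC values, although gpSSPC peaks had higher pileups (132 to 176 against 41 to 119) and called peaks ranged from 59209 to 101606 per library, so depth was not equal. Summits lay between 126 bases before and 45 bases after the start, within the promoter window printed above. A second peak within 2000 bases upstream was called in 5 of 6 gpSSPC libraries (fold 2.202 to 3.21) and in 0 of 6 pSSPC libraries. The gpSSPC library without it was CKO replicate 3. Because peaks were called per library at unequal depth, an uncalled peak is not shown to be closed chromatin.

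**Figure D5:**
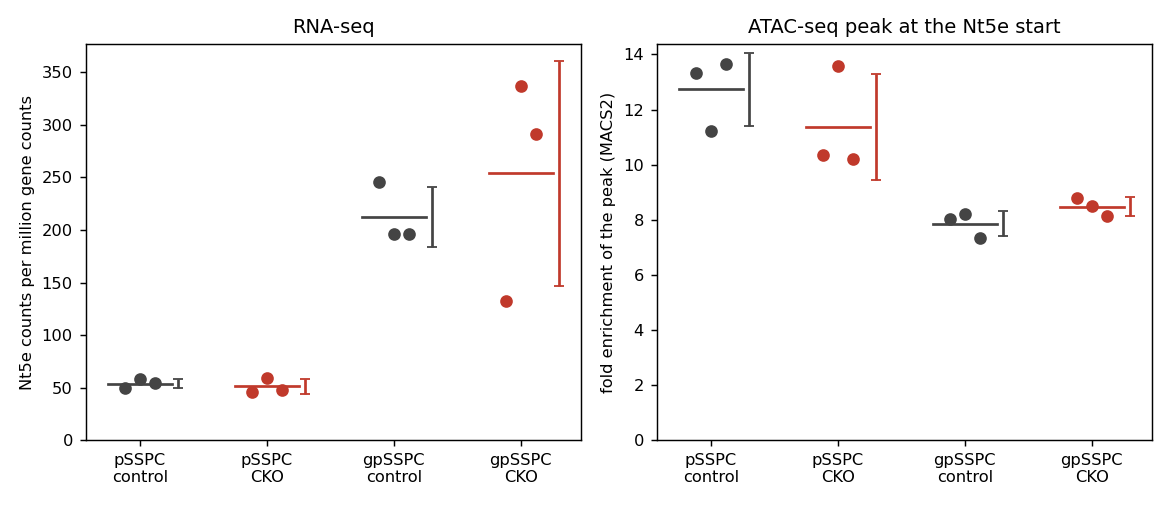
Nt5e RNA (counts per 1000000 gene counts; left) and fold enrichment of the ATAC-seq peak at the Nt5e start site (right) in each sorted bulk library; points are libraries, lines the group mean and error bars the SD (n = 3). pSSPC libraries lie between 46.4 and 59.1 CPM and gpSSPC libraries, sorted on CD73, between 132.8 and 337.0 CPM, and promoter fold enrichment runs from 7.34 to 13.6.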

How the data were processed

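Single-cell UMI counts were deposited by the authors as 10x matrices (Single Cell 3′ v2 kit; header Cell Ranger 3.1.0; mm10). Bulk gene counts were deposited after STAR and HTSeq by the authors. Peak files from the authors (Bowtie2, MACS 2.2.7.1, no control library) give fold enrichment as a ratio, pileup signal and −log10 q-values per library. The members, 14 gene lists and the class markers were chosen with earlier results of these data known. Cells with 200 or more genes were clustered per age (Seurat 5.3.0, 20 or 22 PCs, resolution 0.14 or 0.15). Counts were summed per library and side and tested with edgeR 4.0.16 (TMM, filterByExpr, library as block), with DESeq2 1.42.0 as an alternative. The numbers pair because both sides of a pair come from the same library. Genes were named if they passed the threshold in 1 direction in at least 3 libraries, otherwise up to 10 per direction of lowest p, with a UMI in at least 10 members and 1 direction in all 4 libraries, plus up to 4 of lowest p per list, the class markers, Nt5e, Zmpste24, Ly6a and Acan. Levels per gene beside edgeR values use TMM library sizes, and other CPM use total UMIs. Nothing says that bulk replicates come from separate animals. Thinning used seed 7. The result of a marker list is not reported here.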

Additional observations from a re-analysis of the deposited data

Results flagged for a closer look

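The difference in BMSC-like share between members and matched negatives had opposite signs at the 2 ages: -7.50 and -6.67 percentage points in the 8-week Prx1Cre and OsxCre libraries, and 6.36 and 4.62 points in the 16-week control and CKO libraries. The means of the ages differed by 12.57 points. The difference was not tested, and the ages also differ in Cre line, depth and clustering.

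The summed level of skeletal progenitor surface markers had a log2 ratio of members to negatives of -0.0094 and -0.19 at 8 weeks and 0.034 and 0.016 at 16 weeks, a gap of 0.127 between the ages. For interferon genes the ratios were -0.45 and -0.048 at 8 weeks and 0.18 and 0.030 at 16 weeks, a gap of 0.355. Neither difference was tested.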

How the results depend on the processing

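Among alternatives for the main results, 28 values moved, mostly counts of called genes, and 79 stayed within the limits set. A count of called genes had to equal the main count, which was always 0. The limits were 1 SD over libraries for a share difference and the exact interval for a share. The limit for a share difference is wide: the PMSC-like share difference lost its 4 of 4 direction within it. Over all classes edgeR called 0 genes higher and 0 lower. Without a filter on low counts it called 22 and 28, and against unmatched negatives 27 and 19. With cartilage genes under 0.5% it called 3 and 3, with under 2% 1 and 1, and without the 2 members over 10000 UMIs (an alternative chosen after seeing the data) 3 and 6. With 2 negatives per positive 2 genes were lower (Hba-a1 and Hbb-bs), with 10 negatives 1 (Hbb-bs), after thinning 1 (Hbb-bs) and with negatives of the same class 1 (Gsn). Leaving out 1 library gave 0 to 3 higher and 0 to 6 lower: without the Prx1Cre library 1 and 3, without the OsxCre library 3 and 6, without the control library 0 and 2 and without the CKO library 0 and 0. In BMSC-like cells 1 gene was lower without a filter (Cxcl13), 3 against unmatched negatives (Fabp4, S100a8 and S100a9), and 0 to 1 when 1 library was left out (Ccl2, without the CKO library). The cause of these changes was not tested. Upper-quartile factors, DESeq2 size factors and the DESeq2 test gave 0 in both comparisons.

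Without the replicate block of library pairs, 0 genes were called in either comparison. The bulk Nt5e values are described without a test, paired or unpaired.

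At 2 or more Nt5e UMIs the shares were 0.359% (Prx1Cre), 0.0% (OsxCre), 0.0997% (control) and 0.0427% (CKO), and after thinning 1.57% (control) and 1.87% (CKO). Few Nt5e UMIs per cell limit every comparison, and a cell without one may still express the gene. The PMSC-like share difference was higher in 3 of 4 libraries with 10 negatives per positive (8.84 points) and in 2 of 4 at resolution 0.5 (4.10 points).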
